A study of Meriones unguiculatus and Mus musculus with 2 samples.

Results

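The phagocyte NADPH oxidase was followed through the genes Cybb, Cyba, Ncf1, Ncf4 and Rac2, 5 of the 41125 gene symbols in the deposited table, taken by symbol. Wounded skin was profiled by RNA sequencing 3 days after wounding, in 1 library of Mongolian gerbil (Meriones unguiculatus) and 1 library of ICR mouse, an outbred laboratory stock. Both animals had been wounded, no unwounded skin is part of the comparison, and the labels call the tissue wounded dermis. The labels give no age and do not say how many animals went into a library. Of the 5 genes, 4 had a value in both libraries; the entry of Cyba carried no value in either, so Cyba is not analysed here.

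The oxidase is the enzyme with which neutrophils and macrophages make superoxide. Its membrane core is a flavocytochrome of gp91phox (Cybb), which carries electrons from NADPH to oxygen, and p22phox (Cyba), which stabilises it. In resting cells the organiser p47phox (Ncf1) and p40phox (Ncf4), which binds a phosphoinositide of the phagosome membrane, wait in the cytosol. On activation they move to the membrane core together with the small GTPase Rac2. Loss of the oxidase in people causes chronic granulomatous disease, in which engulfed microbes are not killed.

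Values are FPKM, which scale fragments for sequence length and library size. Each gerbil value was measured after assembly and comes with an expectation value, read here as the strength of the match between an assembled gerbil sequence and the mouse gene. A related mouse gene can therefore carry the same gerbil value. Of the 41214 entries of all gene classes, 21056 had a gerbil value, so lack of a gerbil match was common. With 1 library per species there is no replicate, no test and no p-value, and every difference describes these 2 libraries. In whole-tissue RNA, fewer cells of a type and less RNA per cell cannot be told apart.

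How easily a member could be mistaken for a relative was read from mouse coding sequence (GENCODE M21, GRCm38). Rac2 had 13 related coding genes, the most among the members. Its protein was 91.7% identical to that of Rac1, the form found in most cells, and 88.0% identical to that of Rac3. The first 60 coding bases are shown because they encode the start of the nucleotide-binding fold that Rac2 and Rac3 share; capitals mark bases that differ from Rac2.
Rac2: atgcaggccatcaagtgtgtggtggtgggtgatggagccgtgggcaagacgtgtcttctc
Rac3: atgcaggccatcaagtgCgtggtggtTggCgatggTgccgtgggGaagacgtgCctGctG
In this stretch Rac3 differed from Rac2 at 8 of 60 bases. The last 60 coding bases before the stop codon are shown because they encode the tail in which the proteins part; capitals again mark differences from Rac2.
Rac2: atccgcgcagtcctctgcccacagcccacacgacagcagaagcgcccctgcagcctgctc
Rac3: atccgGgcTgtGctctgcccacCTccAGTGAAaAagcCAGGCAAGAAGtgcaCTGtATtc
Here 28 bases of Rac3 differed. On GRCm38 these tails lie at chr15:78561911-78561970 on the minus strand for Rac2 and chr11:120723547-120723606 on the plus strand for Rac3.

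The other members with values stood further from their relatives. Ncf4 had no related coding sequence or pseudogene. Ncf1 had 1 related gene, Sh3pxd2a, over 106 bases. Cybb had 2, the closer of them Nox3. The gp91phox protein was 56.0% identical to that of Nox3 and 55.1% identical to that of Nox1.

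Cybb (chromosome X, 9435252 to 9487771, minus strand, GRCm38 as for all genes), the catalytic subunit, was at 11.9 FPKM in ICR against 16.7 in gerbil. The 2 libraries were close to level, with a difference in log2(FPKM + 1), gerbil minus ICR, of 0.46, or 1.37-fold. When gerbil was scaled to ICR by a trimmed mean of log ratios the difference was -0.03, and it was -2.25 when gerbil was scaled by all ribosomal protein genes, so its side depends on the scaling. The gerbil match had an expectation value of 0. The same gerbil value was listed for 1 other gene, Raph1, in which no related sequence was found.

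The cytosolic organiser Ncf1 (chromosome 5, 134220053 to 134229625, minus strand) was at 33.4 FPKM in ICR against 92.4 in gerbil. As deposited, gerbil was the higher library, by 1.44 on the log2 scale or 2.72-fold, but the difference was -1.72 when gerbil was scaled by all ribosomal protein genes. The match had an expectation value of 0 and the gerbil value was listed for no other entry, which held for 39.6% of entries with a gerbil value within 1.25-fold of it.

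Rac2 (chromosome 15, 78559169 to 78572783, minus strand), the GTPase that switches the complex on in blood cells, was at 29.9 FPKM in ICR against 92.6 in gerbil. As deposited, gerbil was again the higher library, by 1.60 or 3.03-fold, and the difference was -1.56 when gerbil was scaled by all ribosomal protein genes. Its match had an expectation value of 2e-156, the largest among the 4, and its gerbil value was listed for no other entry, Rac1 and Rac3 included.

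Ncf4 (chromosome 15, 78244801 to 78262580, plus strand), whose product p40phox directs the oxidase to phagosomes, was at 90.4 FPKM in ICR against 12.97 in gerbil. ICR was higher by 6.54-fold, a log2 difference of -2.71, and stayed the higher library under all scalings tried. The match had an expectation value of 0. The gerbil value was listed for 5 other genes, Rit1, Gucd1, Zmat5, Bag6 and Psd, none with a related sequence. Entries of like gerbil value had a median of 5 entries to a value, against 6 for that of Ncf4. Ncf4 and Rac2 lie 297 kb apart on mouse chromosome 15 with 10 coding genes between them, and on 1 chromosome with 9 between them in the gerbil RefSeq annotation (Bangor_MerUng_6.1). Their deposited values differed in opposite directions, but both were lower in gerbil when it was scaled by all ribosomal protein genes.

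**Figure D1:**
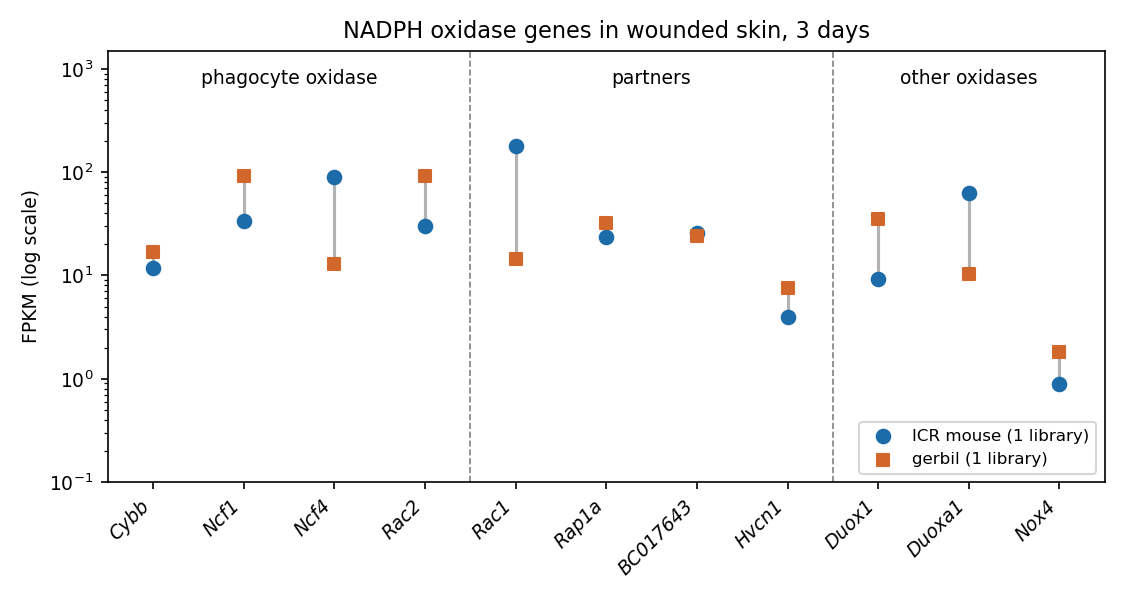
FPKM (log axis) of oxidase genes in the ICR library (circles) and the gerbil library (squares), 1 library each, as deposited, joined by a grey line per gene. Ncf1 and Rac2 are higher in gerbil (on the ICR side, at -1.72 and -1.56, when gerbil is scaled by all ribosomal protein genes), Ncf4 is higher in ICR, and Cybb lies close to level; among the partners Rac1 stands at 179 FPKM in ICR against 14.5 in gerbil.

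The order of the subunits differed between the libraries. In ICR it was Ncf4, Ncf1, Rac2 and Cybb from high to low, with 33.4 FPKM for Ncf1 next to 29.9 for Rac2, and the 4 genes spanned 7.58-fold. In gerbil Rac2 and Ncf1 stood together at the top, Cybb followed and Ncf4 was lowest, over a span of 7.14-fold. With no replicates, whether neighbours in either order differ beyond their spread was not tested.

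Ratios between subunits within 1 library are not affected by how the libraries are scaled to each other. Ncf1 was at 0.369 times the level of Ncf4 in ICR and at 7.13 times in gerbil, so that the ratios stood 19.3-fold apart. Rac2 over Ncf4 was 0.331 in ICR and 7.14 in gerbil, which is 21.6-fold apart. By contrast Ncf1 over Rac2 was 1.12 in ICR and 0.998 in gerbil. Cybb was at 0.358 times Ncf1 in ICR and 0.181 times in gerbil. The Ncf1 and Rac2 pair thus kept its proportion between the libraries to within 1.12-fold, while both shifted against Ncf4. These ratios still rest on gerbil FPKM that were scaled to the length of an assembled sequence, a length not given in the sources used here.

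Of the 4 members, 1 was at least 4-fold higher in ICR and 0 at least 4-fold higher in gerbil. Over all 20089 measured symbols, those with a value in each library and 1 FPKM or more in one of them, 5.56% were at least 4-fold higher in ICR and 25.9% at least 4-fold higher in gerbil. Over the 14054 protein-coding symbols the shares were 7.42% and 9.71%. At 2-fold, Ncf1 and Rac2 lay on the gerbil side and Ncf4 on the ICR side; the background was 47.2% and 12.9% over all measured symbols, and 28.1% and 17.4% over coding ones. A 2-fold excess in gerbil is therefore common in this table. Among coding genes the difference of Ncf4 lay at percentile 4.13, that of Cybb at 55.2, that of Ncf1 at 82.8 and that of Rac2 at 85.7. The median difference of the 4 members was 0.95, against 0.87 over all measured symbols and 0.30 over coding ones. It was 0.45 after the trimmed mean scaling, -1.98 after scaling by all ribosomal protein genes, and 0.46 over the 3 members with an expectation value of 0, which leaves out Rac2.

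**Figure D2:**
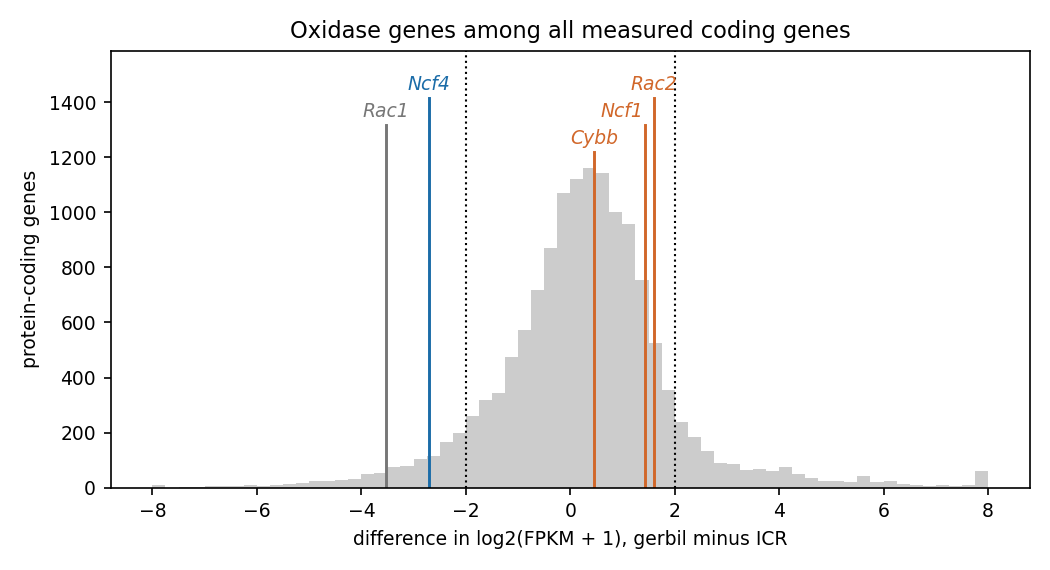
Histogram of the difference in log2(FPKM + 1), gerbil minus ICR, over 14054 protein-coding symbols, with values beyond 8 in either direction placed in the end bins; dotted lines mark 4-fold and vertical lines mark oxidase genes, all without rescaling. Cybb lies near the middle, Ncf1 and Rac2 on the gerbil side inside 4-fold, and Ncf4 and Rac1 on the ICR side beyond it.

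Ranked by level among the coding genes of each library, Ncf4 stood at percentile 94.2 in ICR and at 63.5 in gerbil. Rac2 stood at 81.5 and 93.9, Ncf1 at 83.5 and 93.8, and Cybb at 61.8 and 69.2.

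Which library was higher in Ncf1 and Rac2 depended on the genes used to scale gerbil to ICR. The trimmed mean, the pan-leukocyte list, the ribosomal protein and housekeeping list and the ribosomal or the housekeeping genes of that list alone lowered gerbil by 0.10 to 0.52 on the log2 scale. Under these and the pseudocounts Ncf1 ranged from 0.93 to 1.47 and Rac2 from 1.09 to 1.63, both on the gerbil side. The median of all 73 measured coding ribosomal protein genes lowered gerbil by 3.29, or 9.77-fold, and then Ncf1 was at -1.72, Rac2 at -1.56 and Cybb at -2.25, on the ICR side. Ncf4 was on the ICR side throughout, from -5.30 to -2.41. Ribosomal protein genes did not differ alike: their log2 ratios had quartiles of -0.05 and 5.69, with 54 genes higher in gerbil and 19 in ICR. The 36 measured genes of the ribosomal protein and housekeeping list spread likewise, from -6.17 to 9.92 around a median of 0.32, with 12 at least 4-fold higher in gerbil and 5 in ICR. In that list Rps6 was at 5.82 FPKM in ICR against 2032 in gerbil, a gerbil value that 26 entries carried. Rplp0 was at 1544 and 1871, with a gerbil value that 6 entries carried. Whether shared gerbil values bear on these scalings was not tested. Under the scaling by all ribosomal protein genes the background past 4-fold was 11.6% of measured symbols on the gerbil side and 36.5% on the ICR side, and 2 members, Ncf4 and Cybb, were at least 4-fold higher in ICR. Any gene described hereafter with a gerbil FPKM less than 9.77 times its ICR FPKM moves to the ICR side under it, so the directions given hold for the values as deposited.

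**Figure D3:**
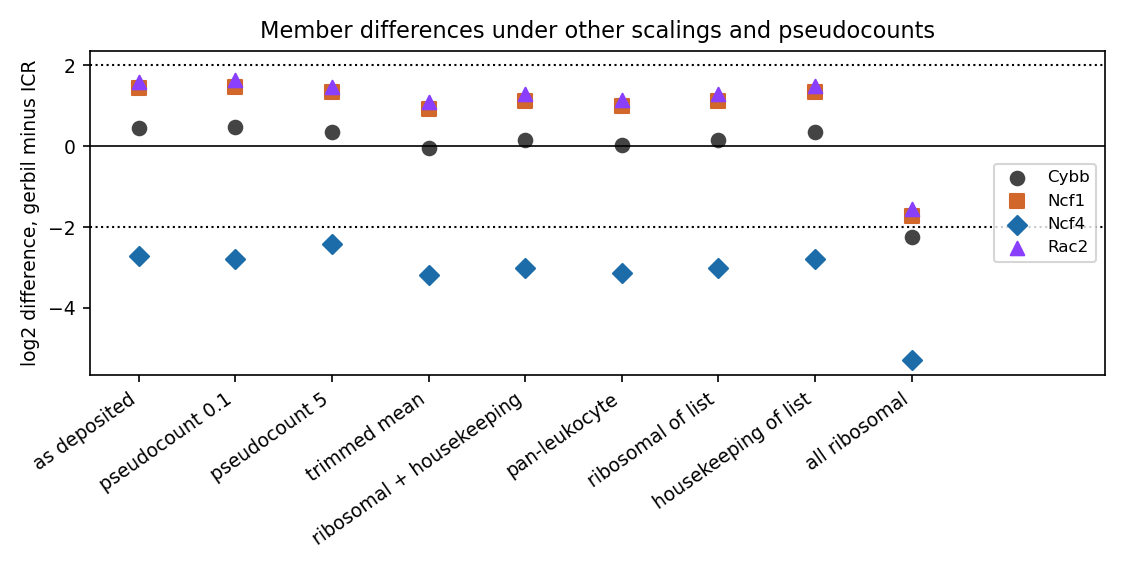
Log2 difference, gerbil minus ICR, of the 4 members with values (symbols) as deposited, under 2 other pseudocounts and under 6 scalings of gerbil to ICR; dotted lines mark 4-fold. Ncf4 is below -2 throughout, while Ncf1 and Rac2 are above 0 except at -1.72 and -1.56 under the scaling by all ribosomal protein genes, where Cybb is at -2.25.

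Rac1, which serves the oxidase where Rac2 is absent and organises the cytoskeleton in most cells, was at 179 FPKM in ICR against 14.5 in gerbil, 11.6-fold higher in ICR. Rac1 was 5.98 times Rac2 in ICR and 0.157 times Rac2 in gerbil. The gerbil value of Rac1 was also listed for 3 other entries, among them the related pseudogene Gm13432. Rac3, at 18.9 and 6.84 FPKM, was lower in gerbil as well, by 2.54-fold. Rac2 was thus the highest of the 3 Rac genes in gerbil and stood between Rac1 and Rac3 in ICR.

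Other partners differed less. BC017643, the older symbol of the chaperone that gp91phox and p22phox need to reach the membrane, was at 26.0 FPKM in ICR against 24.0 in gerbil. Rap1a, a GTPase purified with the flavocytochrome, was at 23.4 and 32.0, with a gerbil value that 2 related pseudogenes also carried. Hvcn1, the proton channel that balances the charge the oxidase moves, was at 3.93 and 7.57. These 3, like Cybb, stayed within 2-fold.

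Among genes with PX and SH3 domains like those of p47phox, Sh3pxd2a and Sh3pxd2b, scaffolds of invasive cell protrusions, were at 23.8 and 10.4 FPKM in ICR against 10.6 and 17.6 in gerbil. The sorting nexins Snx9, Snx18 and Snx33 were at 23.2, 20.1 and 5.48 FPKM in ICR against 22.8, 26.6 and 17.3 in gerbil.

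Of the NADPH oxidases of other cells, Nox4, a form of fibroblasts and vessels, was at 0.891 FPKM in ICR against 1.80 in gerbil. Nox1, Nox3, Noxo1 and Duoxa2 had no gerbil match, and the highest of them in ICR was Noxo1 at 1.15. Noxa1, an activator of Nox1, was listed at 0 in ICR and 2.05 in gerbil. Duox1, an epithelial oxidase, was at 9.24 and 35.1 FPKM. Duox2 was at 0.0624 in ICR and carried the gerbil value of Duox1, so the pair cannot be separated in gerbil. Mrps35 and Nup62, in which no related sequence was found, carried that value as well. Their coding sequences were 77.7% identical. The stretch below is shown because it was the most alike window of 60 bases in their alignment. It was the same in both and, being picked for likeness, does not stand for the rest of the pair.
Duox1 and Duox2: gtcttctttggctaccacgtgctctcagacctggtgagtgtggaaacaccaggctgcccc
Duoxa1, which matures Duox1, was at 62.5 FPKM in ICR against 10.4 in gerbil, 5.55-fold higher in ICR. As deposited, Duoxa1 and Duox1 lay on opposite sides; by all ribosomal protein genes Duox1 was at -1.16. Over the 5 measured of these 9 genes the median difference was 1.61, that of Noxa1, whose gerbil value 33 entries carried, itself included. The median was 0.50 with a pseudocount of 5. Past 4-fold were Duoxa1 in ICR and, in gerbil, Duox2 with the value it shared with Duox1. Over coding symbols 7.42% were past 4-fold in ICR and 9.71% in gerbil.

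Genes that control assembly of the complex were spread around 0. All 26 were measured, with 13 on each side and a median difference of 0.00, or -0.47 after the trimmed mean scaling. Vav1, a nucleotide exchange factor for Rac in blood cells, was at 21.7 FPKM in ICR against 120 in gerbil, 5.33-fold higher. Prex1, another exchange factor for Rac, was at 10.1 and 37.0. Arhgdib, the inhibitor that holds Rac2 in the cytosol, was lower in gerbil, at 127 and 58.4. Arhgdia, its widely expressed relative, was at 255 and 2.48 on a weak match (7e-16). Prkcd, a kinase that phosphorylates p47phox, was level at 42.8 and 45.6. Mapk14, the p38 kinase that primes p47phox, was at 48.1 and 6.90, and Syk, the kinase downstream of Fc and lectin receptors, was 4.18-fold higher in ICR. Irak4, a kinase of Toll-like receptor signalling, was at 7.32 and 109 on a weaker match (5e-59). In all, 2 of 26 were at least 4-fold higher in gerbil, Vav1 and Irak4, and 3 in ICR, Arhgdia, Mapk14 and Syk. The background was 9.71% in gerbil and 7.42% in ICR over coding symbols, and 25.9% and 5.56% over all measured ones.

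Receptors that trigger the oxidase lay on both sides, and 6 of 18 had no gerbil match, C5ar1, Fcgr1, Fcgr3, Fcgr4, Fcer1g and Tyrobp. Over all gene classes, 21056 of 41214 entries had a gerbil value. Whether lack of a match is a trait of these receptors was not tested. Of the 12 measured, 7 were higher and 5 lower in gerbil, with 4 at least 4-fold higher and 0 at least 4-fold lower, where the background was 25.9% and 5.56% of all measured symbols and 9.71% and 7.42% of coding ones. The median of 0.33, near the 0.30 of coding genes, was -0.19 after the trimmed mean scaling. Tlr4, the lipopolysaccharide receptor, was at 9.70 FPKM in ICR against 99.6 in gerbil, and no other gene carried that value. Csf2rb, the shared chain of the GM-CSF receptor that primes the oxidase, was at 32.9 and 151. Fpr1 and Fpr2, the formyl peptide receptors, shared 1 gerbil value of 141, Fpr2 on a weaker match (3e-42). Itgam was at 71.5 and 797, a gerbil value it shared with 13 other entries, and its partner Itgb2 at 58.0 and 76.0. Tnfrsf1a, a tumour necrosis factor receptor, was at 108 and 130. Tlr2 and the fungal glucan receptor Clec7a were lower in gerbil, by 3.29-fold and 2.08-fold.

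Transcription factors of the oxidase genes had a median of -0.03 over 10 measured genes. At least 4-fold higher were 0 in gerbil and 2 in ICR, against 9.71% and 7.42% of coding symbols. Spi1, the myeloid factor PU.1 known in human cells to activate genes of the oxidase, was at 76.8 FPKM in ICR against 38.2 in gerbil. Cebpa (100 and 6.07) and Cebpb (68.2 and 2.51) were the 2 past 4-fold. Cebpe, a factor of late granulocyte maturation, was low at 1.31 and 4.05, Rela was at 29.2 and 64.3, and Nfkb1 at 43.3 and 62.5. Irf8, on chromosome 8 like Cyba, held no number for either library, which is not read as absent expression.

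Enzymes that use or remove the oxidase's products went both ways, with a median of 0.06 over 12 measured genes (-0.45 after the trimmed mean scaling). On each side 1 was past 4-fold, where the background was 9.71% of coding symbols in gerbil and 7.42% in ICR. Sod2, the mitochondrial superoxide dismutase, was at 28.2 FPKM in ICR against 259 in gerbil, 8.92-fold higher. Sod1, the cytosolic form, was level at 80.3 and 75.4. The secreted Sod3 was at 47.4 and 19.5, on a weaker match (1e-30) and with a gerbil value that 29 other entries carried. Prdx5, a peroxiredoxin, was at 634 and 120, 5.24-fold higher in ICR. Prdx1 was at 289 and 335, the thioredoxin Txn1 at 250 and 555, and the lipid peroxidase Gpx4 at 23.6 and 84.6. Mpo, which turns hydrogen peroxide into hypochlorous acid in neutrophils, was at 0.220 in ICR and had no gerbil match, nor had Cat (28.7) and Gpx1 (1395).

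**Figure D4:**
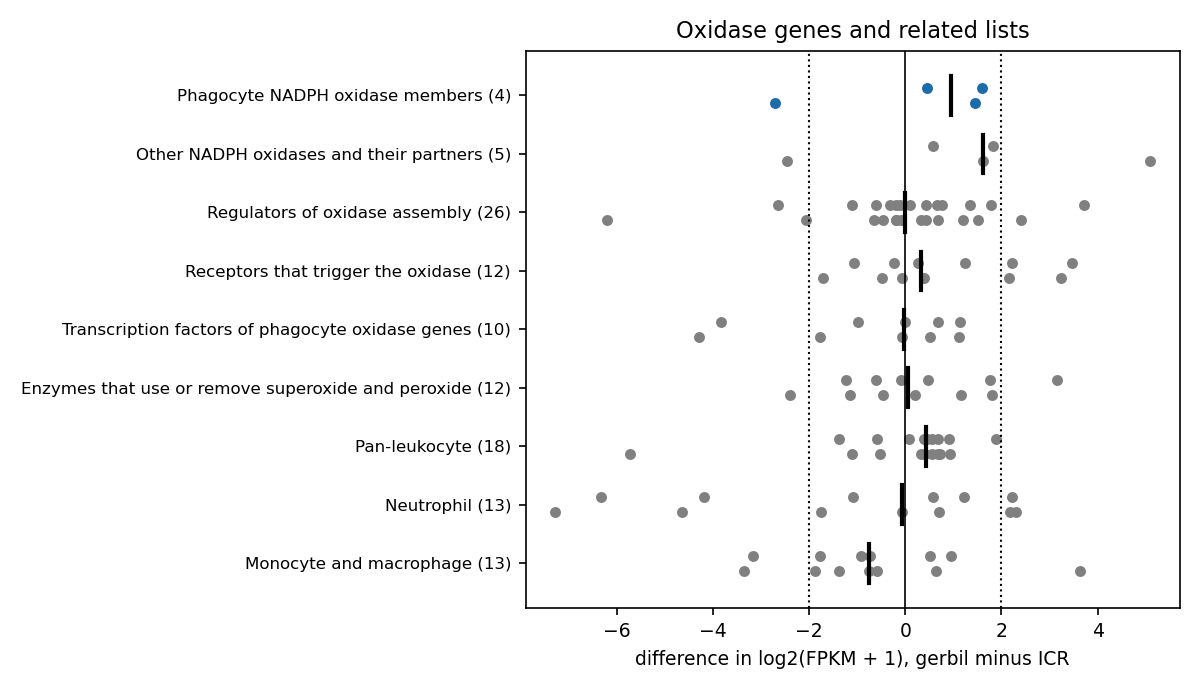
Difference in log2(FPKM + 1), gerbil minus ICR, of each measured gene (points) in the oxidase members and 8 related lists, with the number measured in brackets and the list median as a bar; dotted lines mark 4-fold. Of the pan-leukocyte genes 13 lie above 0 and Cd52 lies far below the rest, and the oxidase members stand on both sides of 0.

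Markers of the cells that hold the oxidase give the frame for these values. Of 19 pan-leukocyte genes 18 were measured, 13 higher and 5 lower in gerbil, with a median of 0.43 (-0.06 after the trimmed mean scaling) and a summed level of 1241 FPKM in ICR against 1428 in gerbil. Ptprc, the leukocyte antigen CD45, was at 29.5 and 43.9, Coro1a at 167 and 267, Laptm5 at 151 and 251, and Lcp1 at 125 and 238. Cybb, at 0.46, lay in the middle of this list, with 9 genes below it and 9 above. Ncf1 and Rac2 each had 17 of the 18 below them, and Ncf4 had 17 above it, Cd52 (159 and 2.01, expectation value 4e-46) being the exception. Cybb over Ptprc was 0.404 in ICR and 0.381 in gerbil, Ncf1 over Ptprc 1.13 and 2.11, and Ncf4 over Ptprc 3.06 and 0.295.

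Neutrophil genes had a median of -0.06 over 13 of 20 measured genes, 6 higher and 7 lower in gerbil, with summed levels of 1270 and 853 FPKM. At least 4-fold higher were 3 in gerbil and 4 in ICR. The background, here and for the macrophage genes below, was 9.71% and 7.42% of coding symbols. The 7 without a gerbil match, S100a8, S100a9 and Retnlg among them, summed to 8262 FPKM in ICR. Csf3r, the G-CSF receptor, was at 55.1 and 15.7, and Cxcr2 was level at 67.0 and 64.0. Among the 6 higher in gerbil, Il1r2 had 154 FPKM in ICR against 362 in gerbil and Trem1 97.6 against 159. Fpr1 (29.5 against 141) and Camp (1.75 against 12.6) were also on that side. The widest gaps toward ICR belonged to Hdc (278 FPKM, gerbil 0.790) and Clec4d (247 FPKM, gerbil 2.07). The expectation value was 0 for Hdc but 8e-09 for Clec4d. Monocyte and macrophage genes had a median of -0.76 over 13 of 18, 1 at least 4-fold higher in gerbil and 2 in ICR, with summed levels of 2359 and 1541; 9 were lower and 4 higher in gerbil. Cd14, a lipopolysaccharide co-receptor, was at 1332 and 784, the complement genes C1qa at 252 and 131 and C1qc at 216 and 62.5, and the chemokine receptor Ccr2 at 43.2 and 3.34. Among the 4 higher in gerbil were the scavenger receptor Cd163, at 10.3 and 140, and Csf1r, at 77.6 and 111. Cd68 (202 in ICR) had no gerbil match, and Adgre1 was not listed. The part that numbers of neutrophils or macrophages have in the differences of the members was not tested.

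Other cell types of the wound were present in both libraries. Keratinocyte genes had a median of -0.25 over 10 genes, 1 at least 4-fold higher in gerbil and 2 in ICR, and Sfn stood at 2813 and 2138 FPKM in a tissue labelled dermis. Medians were -0.14 for 10 fibroblast genes and 0.41 for 9 endothelial genes, with 1 of each at least 4-fold higher in ICR. For all 3 lists the background past 4-fold was 9.71% of coding symbols in gerbil and 7.42% in ICR. T and NK cell genes, 10 of 12 measured with a median of 0.77, summed to 10.9 FPKM in ICR and 117 in gerbil. Klrb1c, at 71.0 in gerbil on a weak match (2e-16), and Nkg7, at 25.4, made up most of the gerbil sum, and the other 8 genes summed to 9.46 and 20.8. B cell genes, 3 of 7 measured with a median of 0.82, summed to 16.3 and 27.9. Most of that gerbil sum was Ms4a1, at 0.0193 and 19.5 on a weaker match (5e-53), with a gerbil value that 29 other entries carried. Ighm was lower in gerbil, at 15.2 and 5.67, and Cd79b was at 1.11 and 2.73. Eosinophil and mast cell genes, 3 of 12 measured with a median of 0.95, summed to 2.92 and 9.07.

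Over the 2 libraries, the closest of 206 other listed genes to Ncf1 was Rac2, and the closest to Rac2 was Ncf1, at a distance of 0.15 in log2(FPKM + 1). Gpx4 and Rps27a came next for both. Closest to Ncf4 were Rhoc (0.20), Duoxa1 (0.60) and Csf3r (0.75), and closest to Cybb were Eng (0.10), Runx1 (0.16) and Sh3pxd2b (0.20). With 2 libraries such likeness describes a pair of levels only.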

How the data were processed

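FPKM were computed by the authors, per the file headers, and deposited in a table of 41214 mouse gene entries. A number was given in ICR for 40993 of them and in gerbil for 21056. No counts were used, so depth is unknown. The deposited expectation value, treated as a score, was 1e-05 at most. Per the submitters' processing notes the tools were Cufflinks 2.2.1, RSEM 1.2.19, STAR 2.4.0b and CASAVA, and the build GRCm38.p2, with no role given for any. Neither the assembler nor the search program was given in the sources used here.

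Differences were log2(FPKM + 1) in gerbil minus ICR. A symbol needed both values and 1 FPKM in 1 library; where it had several entries, the one of highest mean was used. As each group had 1 library, a 4-fold size rule replaced a test, and the calculation was run on simulated data. Those data held planted changes well past 4-fold and modelled no shared gerbil values or failed matches. The simulation therefore checks the calculation only and cannot show how reliable the calls are here. Gene classes and coding sequences came from GENCODE M21, which held 40254 of the entries. Proteins translated from it, in place of the planned RefSeq proteins, were aligned globally (BLOSUM62, gap open 10, extend 0.5). Related sequences were blastn 2.17.0 hits at 1e-05 over at least 100 bases. The trimmed mean removed 30% of ratios and 5% of levels at each end. Python 3.11.15, pandas 2.3.3 and biopython 1.88 were used.

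The members and lists were chosen with earlier results of these data known. Genes named were the members, their partners and other oxidases, and from each further list the 3 most abundant and the 2 most different on each side, with 11 myeloid and oxidant genes; some that this rule takes in, mostly in cell type lists, are not described, and some items are not reported here. Rac3, Prex1, Prkcd, Syk, Csf2rb, Sod1, Irf8, C1qc, Mrps35, Nup62 and genes without a gerbil match were also named.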

Additional observations from a re-analysis of the deposited data

How the results depend on the processing

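Size counts of the members changed in 4 settings: 2 were higher in ICR after scaling by all ribosomal protein genes, and at 2-fold, 2 of 4 were higher in gerbil, and 0 were higher in ICR at 8-fold or among the 2 members with a gerbil value of their own, a subset that leaves out Ncf4 by construction. Expectation values of 0 leave out Rac2. The background moved by over 1.5 times more often. From 5199 symbols at least 4-fold higher in gerbil it went to 8258 with a pseudocount of 0.1, 3322 with 5, 9488 at 2-fold, 801 with 1 FPKM in both libraries, 1365 among protein-coding genes, 130 among unshared gerbil values, 2152 at an expectation value of 0 and 2321 after scaling by all ribosomal protein genes. From 1116 higher in ICR it went to 557 with a pseudocount of 5, 2591 at 2-fold, 505 at 8-fold, 36 among unshared values, 684 at an expectation value of 0 and 7337 after scaling by all ribosomal protein genes. Restricted sets hold fewer genes by construction; for the pseudocounts and the scaling the cause was not tested. The split between the sides was 41.1% and 7.28% of symbols with a pseudocount of 0.1, 16.5% and 2.77% with 5. Rounded to 1 decimal, the gerbil value of Ncf1 was still listed for 1 entry, that of Rac2 for 3, Cybb 19 and Ncf4 30. No paired analysis was possible because there was 1 library to a species, and so no library could be left out either. Scalings by the list's ribosomal protein genes alone, its housekeeping genes alone and all ribosomal protein genes were added after the data were seen.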
